A study of Mus musculus with 12 samples.

Results

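The genes described here are 10 stress response genes that act with or downstream of the transcription factors ATF4 and CHOP: Atf4, Atf5, Ddit3 (which encodes CHOP), Cebpg, Ppp1r15a, Eif4ebp1, Trib3, Sesn2, Chac1 and Nupr1. They were chosen by symbol from earlier results on the same 12 libraries, so their levels in the 4 groups, which were known at that point, are given as a description. All 10 of these symbols are among the 36144 in the deposited table, and all 10 passed the filter on low values that kept 11544 genes. RNA came from primary hepatocytes, the main cells of the liver, isolated from a wild-type C57/Bl6J mouse and kept overnight in serum-free medium for 16 h. Each group had 3 libraries. Mock cells received no further agent. FD cells received 10 µM forskolin, which raises cAMP, and 1 µM dexamethasone, a glucocorticoid, for 5 h before lysis. Poly-A RNA was sequenced. FDI cells received 100 nM insulin 1 h before the same pair, and FDMn cells received 6 µM MnCl2 through the 16 h and then the same pair. No group was given insulin or manganese alone. The labels name 1 mouse and leave unstated if the replicates were cultured separately, so tests measure the spread between these libraries, which may be technical.

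When a cell is short of amino acids, loads its endoplasmic reticulum with unfolded protein, or is stressed in its mitochondria, kinases phosphorylate the translation factor eIF2. General translation then slows, while the ATF4 message is translated better. ATF4 protein, often paired with a C/EBP protein such as CEBPG, turns on genes of amino acid supply and stress control, among them Ddit3 and Trib3. The kinase complex mTORC1, which insulin activates, is also known to raise ATF4 protein. A message level as measured here does not report the level or activity of the protein.

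Promoter sequence of 3 members is shown because it holds the letters to which such factors are known to bind. The RefSeq table for GRCm38.p6 matched 9 of the 10 genes by symbol and gave 10 windows, Atf5 having 2 start sites. The 250 bases before each start were searched on both strands for the C/EBP-ATF composite element TGATGNAA and for the cAMP response element TGACGTCA. These motifs do not share a sequence. The composite element was found in 2 of the 9 genes, Chac1 and Nupr1, and in 3.45% of all 32851 windows of that length. The cAMP response element was found in Ppp1r15a alone among the 9, and in 1.55% of all windows. The Chac1 sequence (chr2:119350992-119351228, plus strand) ends where its first GENCODE exon begins. The other sequences are 30 bases upstream of the RefSeq Nupr1 start (chr7:126625562-126625591, minus strand), which lie inside the GENCODE Nupr1 gene and within an exon of its annotated transcripts, and the last 30 bases before the Ppp1r15a start (chr7:45526269-45526298, minus strand). Capitals mark the match, which in Chac1 and Nupr1 reads as the reverse complement of the searched element, TTGCATCA. It lies 193 to 186 bases before the Chac1 start, 110 to 103 bases before the RefSeq Nupr1 start, and 12 to 5 bases before the Ppp1r15a start.
Chac1: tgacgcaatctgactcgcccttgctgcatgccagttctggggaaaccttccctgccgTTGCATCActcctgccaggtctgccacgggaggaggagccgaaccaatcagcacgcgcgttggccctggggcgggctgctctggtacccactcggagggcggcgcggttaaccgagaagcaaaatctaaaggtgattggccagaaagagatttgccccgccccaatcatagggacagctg
Nupr1: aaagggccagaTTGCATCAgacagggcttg
Ppp1r15a: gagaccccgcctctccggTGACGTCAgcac
A match is a description of letters, and a window without one says nothing about more distant sites.

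In GENCODE M21, an annotation of GRCm38, all 10 genes are protein-coding. Trib3 (152337422 to 152344032) and Chac1 (119351229 to 119354381) lie on chromosome 2, Sesn2 on chromosome 4 (132492032 to 132510501), Eif4ebp1 on chromosome 8 (27260329 to 27276674) and Atf4 on chromosome 15 (80255184 to 80257541). Chromosome 7 holds 4 of them, namely Atf5 (44812256 to 44816658), Cebpg (35046422 to 35056573), Ppp1r15a (45522916 to 45526268) and Nupr1 (126623249 to 126630861). Ddit3 has 2 overlapping records on chromosome 10, the longer from 127290774 to 127296288, and its end overlaps Mars, a gene on the opposite strand, while its start overlaps a noncoding transcript. Atf5 overlaps Nup62 and Il4i1 at its start, Ppp1r15a overlaps Tulp2, and Cebpg overlaps an antisense transcript. On the same strand, Sesn2 overlaps Gm12981, and Cebpg overlaps Gm44836 and Gm45094. The use of strand in counting is not given in the sources used here, so reads in these overlaps cannot be assigned to 1 partner. Mars lay between 43.6 and 65.9 TPM over the 12 libraries, with FD lowest (43.6 to 48.1) and Mock highest (63.4 to 65.9), and Nup62 between 17.7 and 40.0 TPM, with FDMn lowest (17.7 to 18.8).

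Levels are in TPM, a measure of transcript abundance scaled to transcript length and to a fixed total per library. TPM can therefore be compared between genes, and a rise in abundant transcripts lowers all others. Between 10900 and 11161 genes per library reached 1 TPM. Of 7 hepatocyte marker genes, 6 were analysed here and summed to 26807 to 36916 TPM. Markers of Kupffer cells (3.94 to 8.23 TPM, 10 genes), endothelial cells (21.4 to 33.4 TPM, 8 genes), stellate cells and fibroblasts (3.55 to 6.02 TPM, 8 genes) and lymphocytes (0.0139 to 0.367 TPM, 6 genes, 1 of them at 0 in every library) were low. Of the 6 cholangiocyte genes, Krt19, Krt7 and Epcam were at most at 1.24 TPM in every library. The other 3 are not low and took different orders: Spp1 had means of 889 TPM in Mock, 681 in FD, 632 in FDI and 1418 in FDMn, Cldn4 of 176, 61.3, 105 and 51.7 TPM, and Sox9 of 34.9, 17.0, 40.6 and 25.2 TPM. In such bulk samples, fewer cells of a type and less RNA per cell cannot be told apart. Where such markers moved with a comparison below, their part in the members' differences was not tested.

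Atf4 itself was abundant and did not separate FD from untreated cells. It stood at 175, 209 and 179 TPM in Mock, 179, 179 and 172 TPM in FD, 235, 232 and 226 TPM in FDMn, and 328, 313 and 340.4 TPM in FDI. The Mock and FD libraries overlapped, every FDMn library lay above both, and every FDI library lay above FDMn. The means were 187 ± 18.5, 176 ± 4.21, 231 ± 4.51 and 327 ± 13.6 TPM in the same order (SD, n = 3 each, as throughout).

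Ddit3 encodes CHOP, a factor of prolonged stress that is linked to cell death. It was at 46.4, 26.9 and 30.6 TPM in Mock and at 12.4, 15.8 and 11.3 TPM in FD. It was at 40.2, 39.8 and 35.8 TPM in FDMn and at 85.8, 76.3 and 84.4 TPM in FDI. FD was the lowest group and FDI the highest, neither overlapping any other, while FDMn lay within the range of Mock. Mock was also the most variable group, its 3 values having a coefficient of variation of 29.9%, against 6.35% in FDMn and 6.27% in FDI.

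Atf5, a relative of ATF4 that is also controlled at translation and is known for inducing mitochondrial chaperones, was the most abundant of the 10. It was at 594, 593 and 531 TPM in Mock, 396, 420.0 and 405 TPM in FD, 584.5, 503 and 557 TPM in FDMn, and 563, 499 and 519 TPM in FDI. Only FD stood apart, below the other 3 groups, which overlapped each other. Cebpg, a C/EBP protein without an activation domain of its own that pairs with ATF4, was at 42.7, 42.6 and 44.6 TPM in Mock, 27.7, 30.7 and 25.2 TPM in FD, 37.5, 39.0 and 36.8 TPM in FDMn, and 35.4, 35.4 and 37.6 TPM in FDI. Here too FD was lowest, but Mock lay above every other library, and FDMn and FDI overlapped. Atf4 and Ddit3 thus had their highest group in FDI, while Atf5 and Cebpg had theirs in Mock, although for Atf5 the Mock, FDMn and FDI values did not separate.

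A pair of members acts on translation. Ppp1r15a, or GADD34, guides a phosphatase to eIF2 and so ends the stress signal. It was at 39.8, 44.4 and 30.4 TPM in Mock, 49.1, 52.8 and 45.0 TPM in FD, 61.4, 67.7 and 68.4 TPM in FDMn, and 85.6, 58.6 and 80.0 TPM in FDI. The order of the means ran from Mock (38.2 ± 7.11) through FD (49.0 ± 3.91) and FDMn (65.8 ± 3.88) to FDI (74.7 ± 14.3), and FDI replicate 2 fell below all 3 FDMn libraries. Eif4ebp1 encodes 4E-BP1, which holds back cap-dependent translation until mTORC1 phosphorylates it. The ratio of its highest to its lowest group mean was the smallest of the 10. It was at 229, 223 and 212 TPM in Mock, 223, 211 and 226 TPM in FD, 262, 244 and 251 TPM in FDMn, and 278, 256 and 275 TPM in FDI. Mock and FD overlapped, FDMn and FDI overlapped, and the second pair lay above the first.

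The other 4 members are regulators and effectors. Trib3, a pseudokinase known to restrain AKT and to bind ATF4 and CHOP, was at 53.8, 66.5 and 35.8 TPM in Mock, 18.0, 24.7 and 22.1 TPM in FD, 69.2, 53.7 and 61.2 TPM in FDMn, and 114, 94.0 and 127 TPM in FDI. Its order was that of Ddit3, with FD lowest, Mock and FDMn overlapping and FDI highest. Sesn2, a leucine sensor that restrains mTORC1, was at 14.5, 16.3 and 14.2 TPM in Mock, 13.5, 12.9 and 13.3 TPM in FD, 15.9, 16.0 and 17.0 TPM in FDMn, and 27.5, 27.9 and 31.5 TPM in FDI. FDI stood clear of the other 3 groups, which spanned only 12.9 to 17.0 TPM between them.

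Chac1, an enzyme that breaks down glutathione, was at 10.4, 12.6 and 9.67 TPM in Mock, 15.9, 14.9 and 17.3 TPM in FD, 25.7, 28.5 and 26.0 TPM in FDMn, and 72.5, 67.4 and 81.1 TPM in FDI. It was the only member whose 4 groups all stood apart, in the order Mock, FD, FDMn, FDI. Nupr1, a small chromatin protein induced by many stresses, was at 21.0, 28.2 and 23.4 TPM in Mock, 9.14, 11.2 and 7.80 TPM in FD, 33.3, 32.2 and 32.3 TPM in FDMn, and 28.5, 27.5 and 26.8 TPM in FDI. It was the only member with its highest values in FDMn, where every library lay above every FDI library, while Mock and FDI overlapped.

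**Figure D1:**
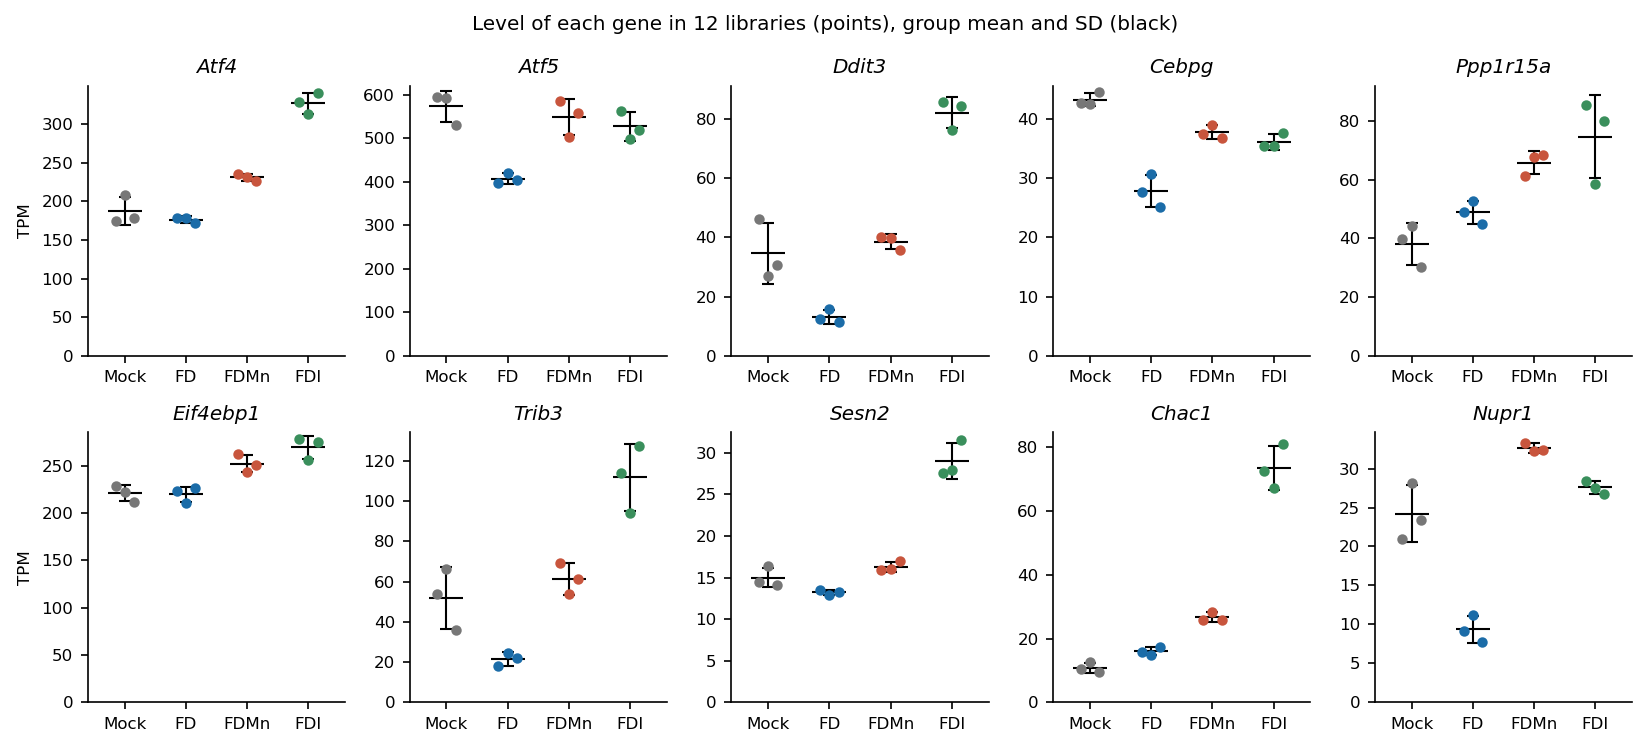
Level in TPM (vertical axis, from 0) of each of the 10 genes in Mock, FD, FDMn and FDI (horizontal axis). Points are single libraries and black marks the mean and SD of 3 libraries. FDI is highest for Ddit3 (76.3 to 85.8 TPM), Trib3, Chac1, Sesn2 and Atf4, and FDMn for Nupr1 (32.2 to 33.3 TPM).

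By the calls defined below, 5 of these messages were lower with forskolin and dexamethasone than in untreated cells, and 1 was higher. Ddit3 was 2.63-fold lower in FD than in Mock, Nupr1 2.58-fold, Trib3 2.41-fold, Cebpg 1.55-fold and Atf5 1.41-fold, each with no overlap between the libraries. Chac1 went the other way, 1.47-fold higher. The share of all genes without overlap was not computed, here or in the comparisons below. A gene is said to be called when its adjusted p is below 0.05 in the limma fit over all 11544 genes; for the 10 members these calls are counts only, because their values chose them. In FD against Mock those 5 were called lower, where 29.9% of all genes were, and Chac1 was called higher, where 11.2% of all genes were. The log2 differences, all on the scale of log2(TPM + 1), were −1.31 ± 0.17 (SE) for Ddit3, −1.28 ± 0.12 for Nupr1, −1.20 ± 0.20 for Trib3, −0.62 ± 0.07 for Cebpg, −0.49 ± 0.07 for Atf5 and 0.52 ± 0.10 for Chac1. Those of Atf4 (−0.08 ± 0.07), Sesn2 (−0.17 ± 0.08), Eif4ebp1 (−0.01 ± 0.05) and Ppp1r15a (0.37 ± 0.15) were not called. Sesn2 nonetheless had no overlap between FD (12.9 to 13.5 TPM) and Mock (14.2 to 16.3 TPM). Nor had Ppp1r15a (45.0 to 52.8 and 30.4 to 44.4 TPM). The median over the members was −0.33, beside −0.15 over all genes, which median-of-ratios scaling moved to −0.01; under that scaling Eif4ebp1 (0.16) and Ppp1r15a (0.52) were also called higher. Ppp1r15a was also called higher without Mock replicate 2 or FDI replicate 2. Summed cholangiocyte markers did not overlap between FD (732 to 803 TPM) and Mock (1082 to 1126 TPM).

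With manganese the members stood higher than in FD, by very different amounts. Nupr1 was 3.48-fold higher, Ddit3 2.93-fold and Trib3 2.84-fold, Chac1 followed with 1.67-fold, and the other 6 lay between 1.15-fold and 1.36-fold. Of the 10, 9 were called higher and 0 lower in FDMn against FD, where 7.22% and 7.90% of all genes were called higher and lower. Limma at an unadjusted p below 0.05 gave 10 and 0. The share of all genes at an unadjusted p below 0.05 was not computed, here or below, so such counts have no background beside them. The log2 differences were 1.71 ± 0.12 for Nupr1, 1.495 ± 0.17 for Ddit3, 1.47 ± 0.20 for Trib3, 0.70 ± 0.10 for Chac1, 0.43 ± 0.07 for both Cebpg and Atf5, 0.39 ± 0.07 for Atf4, 0.28 ± 0.08 for Sesn2 and 0.20 ± 0.05 for Eif4ebp1. Ppp1r15a was not called, at 0.42 ± 0.15, though it was without Mock replicate 3 or FDI replicate 2. The median was 0.43 beside 0.00 over all genes. The 2 smallest calls were the least firm: that of Sesn2 ended without any single FD or FDMn library or FDI replicate 2, and that of Eif4ebp1 without FD replicate 1 or 2 or FDMn replicate 1 or 3. Summed Kupffer cell markers did not overlap between FDMn (7.06 to 8.23 TPM) and FD (4.72 to 5.89 TPM). Nor did those of cholangiocytes (1412 to 1606 and 732 to 803 TPM).

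With insulin all 10 members stood above FD in every library, though the share of all genes that separate in this way was not computed. Ddit3 was 6.25-fold higher, Trib3 5.18-fold, Chac1 4.59-fold, Nupr1 2.94-fold, Sesn2 2.19-fold and Atf4 1.86-fold, and the others lay between 1.23-fold and 1.53-fold. All 10 were called higher and 0 lower in FDI against FD, where 10.2% and 4.35% of all genes were; at an unadjusted p below 0.05 limma gave the same 10 and 0. The log2 differences were 2.57 ± 0.17 for Ddit3, 2.32 ± 0.20 for Trib3, 2.13 ± 0.10 for Chac1, 1.47 ± 0.12 for Nupr1, 1.07 ± 0.08 for Sesn2, 0.89 ± 0.07 for Atf4, 0.58 ± 0.15 for Ppp1r15a, 0.37 ± 0.07 for both Atf5 and Cebpg, and 0.29 ± 0.05 for Eif4ebp1. The median was 0.98, beside 0.04 over all genes. The Ppp1r15a call ended without FD replicate 1 and without FDI replicate 1 or 3, while the difference lay between 0.48 and 0.75 under the 21 alternatives. Summed stellate and fibroblast markers did not overlap between FDI (3.55 to 3.70 TPM) and FD (4.57 to 6.02 TPM), nor did those of lymphocytes (0.160 to 0.367 and 0.0139 to 0.0894 TPM). The comparisons with manganese and with insulin use the same 3 FD libraries, so their likeness is no evidence of a common response.

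**Figure D2:**
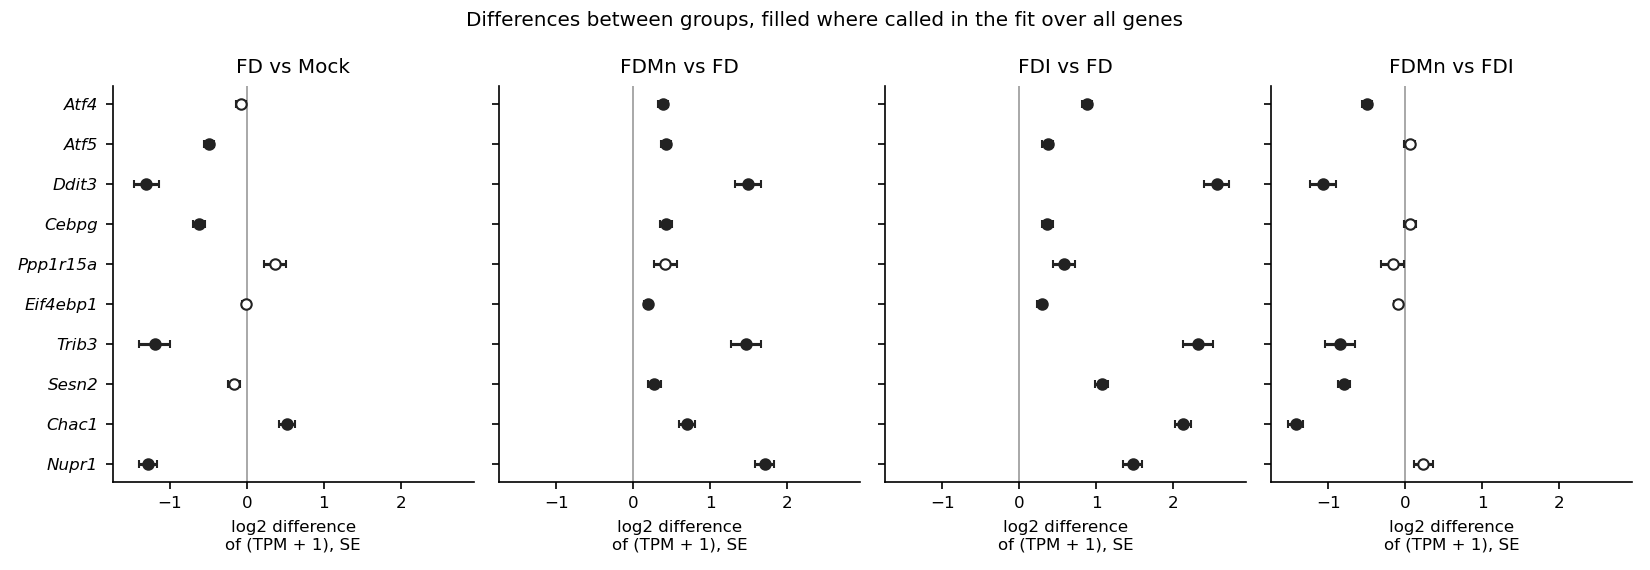
Difference of log2(TPM + 1) between groups (horizontal axis, first group minus second) for each of the 10 genes (vertical axis) in 4 comparisons, with bars for the SE of the fit and filled points where the gene was called. Every point lies above 0 in FDMn against FD and in FDI against FD, and in FDMn against FDI the filled points are Atf4, Ddit3, Trib3, Sesn2 and Chac1, all below 0.

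The direct comparison of manganese with insulin divided the members evenly. Chac1 was 2.76-fold higher in FDI than in FDMn, Ddit3 2.13-fold, Trib3 1.82-fold, Sesn2 1.78-fold and Atf4 1.42-fold, with no overlap between the libraries. These 5 were called lower in FDMn against FDI, where 11.9% of all genes were, with log2 differences of −1.43 ± 0.10 (Chac1), −1.07 ± 0.17 (Ddit3), −0.85 ± 0.20 (Trib3), −0.79 ± 0.08 (Sesn2) and −0.50 ± 0.07 (Atf4). The other 5, Nupr1 (0.24 ± 0.12), Cebpg (0.06 ± 0.07), Atf5 (0.06 ± 0.07), Eif4ebp1 (−0.10 ± 0.05) and Ppp1r15a (−0.16 ± 0.15), were not called. By limma 0 members were called higher, where 5.68% of all genes were. At an unadjusted p below 0.05 limma also gave 0 members higher. The same 5 were called lower whichever library was left out, and under each of the other 9 settings. Summed markers did not overlap between FDMn and FDI for hepatocytes (31660 to 32397 and 26807 to 27453 TPM) or endothelial cells (29.9 to 33.4 and 21.7 to 26.0 TPM). Nor did those of stellate cells and fibroblasts (4.33 to 4.95 and 3.55 to 3.70 TPM), cholangiocytes (1412 to 1606 and 762 to 809 TPM) or lymphocytes (0.0610 to 0.115 and 0.160 to 0.367 TPM). Those of Kupffer cells overlapped. Their part in these differences was not tested. Cells had met manganese for 16 h and insulin for only 1 h when the hormone mimics were added, so the agent and the length of exposure cannot be told apart.

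Against untreated cells, Chac1 had the largest difference in both treated groups. In FDMn, 5 members were called higher than in Mock (12% of all genes were) and 0 lower (30.6% of all genes were; limma at an unadjusted p below 0.05 gave 5 and 1). They were Chac1 (2.45-fold), Ppp1r15a (1.72-fold), Nupr1 (1.35-fold), Atf4 (1.23-fold) and Eif4ebp1 (1.14-fold). Ddit3 (0.19 ± 0.17 on the log2 scale), Trib3 (0.27 ± 0.20), Sesn2 (0.11 ± 0.08), Atf5 (−0.06 ± 0.07) and Cebpg (−0.19 ± 0.07) were not called. The Nupr1 call ended without Mock replicate 1, the library with the highest Ddit3 in its group, and without that library Ddit3 was called higher (0.41). Cebpg was called lower without FD replicate 2 or 3. Under median-of-ratios and under quantile scaling Sesn2 was called higher. The Eif4ebp1 call ended without Mock replicate 3 or FDMn replicate 1. Summed hepatocyte markers did not overlap between FDMn (31660 to 32397 TPM) and Mock (28916 to 29819 TPM). Nor did those of Kupffer cells (7.06 to 8.23 and 3.94 to 5.51 TPM). Those of endothelial cells (29.9 to 33.4 and 21.4 to 23.4 TPM) and cholangiocytes (1412 to 1606 and 1082 to 1126 TPM) also separated.

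In FDI, 7 members were called higher than in Mock (12.9% of all genes were) and 1 lower (25.4% of all genes were). Chac1 was 6.77-fold higher, Ddit3 2.37-fold, Trib3 2.15-fold, Ppp1r15a 1.96-fold, Sesn2 1.93-fold, Atf4 1.75-fold and Eif4ebp1 1.22-fold. Cebpg was the gene called lower (−0.25 ± 0.07), a call that ended without Mock replicate 3, without FDI replicate 2 and under both other scalings. Nupr1 (0.19 ± 0.12) and Atf5 (−0.12 ± 0.07) were not called, though Atf5 was called lower under quantile scaling. For Ddit3 and Trib3 the level with insulin was thus above both FD and Mock, while for Atf5 and Nupr1 it overlapped Mock. Summed hepatocyte markers did not overlap between FDI (26807 to 27453 TPM) and Mock (28916 to 29819 TPM). Nor did those of stellate cells and fibroblasts (3.55 to 3.70 and 4.14 to 5.43 TPM). Those of cholangiocytes (762 to 809 and 1082 to 1126 TPM) also separated.

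A list of 35 other genes that ATF4 or CHOP is known to control was read in the same way, and it too was drawn up with earlier results known. In FD against Mock 21 were called lower and 9 higher, where 29.9% and 11.2% of all genes were (median log2 difference −0.51). Among the smallest adjusted p by limma, the DNA damage gene Gadd45a fell from 101 ± 15.5 to 23.4 ± 1.41 TPM (adjusted p = 3.6e-08). Gpt2, an alanine aminotransferase, rose from 153 ± 2.12 to 616 ± 33.1 TPM (adjusted p = 8.23e-11), Herpud1, an endoplasmic reticulum protein, from 44.7 ± 2.13 to 213 ± 29.4 TPM (2.72e-09), and the growth factor Vegfa from 84.8 ± 6.29 to 275 ± 48.4 TPM (9.87e-08).

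In FDMn against FD 15 of the 35 were called higher and 2 lower, where 7.22% and 7.90% of all genes were (median 0.29). Without single libraries 1 to 4 were called lower, the 4 without FD replicate 3. In FDI against FD 28 were called higher and 1 lower, where 10.2% and 4.35% of all genes were (median 0.65). With manganese Gadd45a (to 76.7 ± 6.52 TPM, adjusted p = 5e-06), the cysteine-forming Cth (59.8 ± 2.67 to 108 ± 1.49 TPM, 2.21e-05), the amino acid transporter subunit Slc3a2 (305 ± 15.4 to 447 ± 22.4 TPM, 4.37e-05) and the folate enzyme Mthfd2 (22.9 ± 1.60 to 46.0 ± 0.773 TPM, 5.07e-05) led, followed by Nars, Aars, Slc7a1 and Psph. With insulin Gadd45a (to 114 ± 12.8 TPM), the arginine transporter Slc7a1 (1.73 ± 0.224 to 10.1 ± 1.52 TPM), Cth (to 135 ± 7.82 TPM) and Psat1 (57.1 ± 4.33 to 120.3 ± 3.99 TPM) led, at adjusted p from 3.67e-07 to 1.42e-06. Bcl2l11, which encodes the death protein BIM, fell with both, from 6.92 ± 0.218 TPM to 3.26 ± 0.348 with manganese and 3.11 ± 0.397 with insulin (adjusted p = 0.00174 and 0.00119). Tnfrsf10b, the death receptor that CHOP induces, fell with manganese (9.84 ± 0.641 to 7.45 ± 0.914 TPM, adjusted p = 0.03) and was at 10.7 ± 0.631 TPM with insulin (adjusted p = 0.519). Between the 2 treatments 25 of the 35 were lower in FDMn than in FDI and 0 higher, where 11.9% and 5.68% of all genes were. The median was −0.47, and 1 was higher at an unadjusted p below 0.05. Psat1 led (70.2 ± 3.43 against 120.3 ± 3.99 TPM, adjusted p = 1.63e-05). Of the members, Atf4, Ddit3, Trib3, Sesn2 and Chac1 were also lower there, as were Eif4ebp1 and Ppp1r15a without a call. Nupr1, Cebpg and Atf5 had the opposite sign (0.24, 0.06 and 0.06), also without a call.

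**Figure D3:**
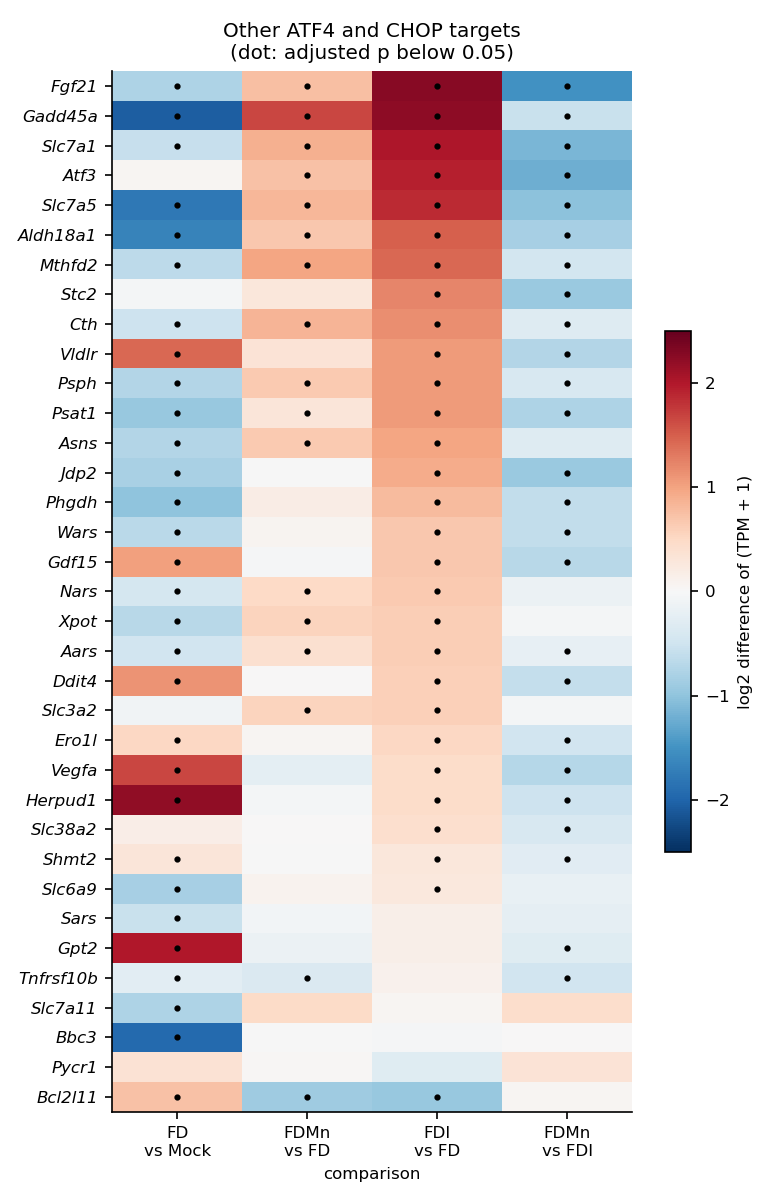
Difference of log2(TPM + 1) (colour, red for higher in the first group and blue for lower) of the 35 other ATF4 and CHOP targets (rows, ordered by FDI against FD) in 4 comparisons (columns), with a dot where the adjusted p was below 0.05. Dots mark 28 red cells in FDI against FD and 25 blue cells in FDMn against FDI.

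Genes related to the members by sequence moved in both directions. Atf3, an ATF factor that ATF4 induces, was at 26.5 ± 5.52 TPM in Mock, 27.4 ± 4.88 in FD, 46.0 ± 8.61 in FDMn and 107 ± 6.40 in FDI (adjusted p = 0.012 for FDMn against FD and 0.000398 for FDMn against FDI). Sesn1, a sestrin known as a FOXO and p53 target, moved opposite to Sesn2 from FD to manganese and to insulin, but both were higher in FDI than in Mock. FD raised it to 12.2 ± 1.09 TPM, from 2.98 ± 0.253 in untreated cells, and its level fell to 6.89 ± 0.629 with manganese and 5.19 ± 0.573 with insulin (adjusted p = 1.65e-07, 0.001 and 5.78e-05). Sesn3 was at 9.45 ± 1.25 TPM in Mock, 5.66 ± 0.0212 in FD, 3.87 ± 0.419 in FDMn and 5.37 ± 0.702 in FDI, and fell in FD and again with manganese (adjusted p = 0.00117 and 0.0256). Sesn2 had the highest mean of the sestrins in every group, though in FD the Sesn1 and Sesn2 libraries overlapped.

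Of the C/EBP genes, Cebpb rose from 61.3 ± 2.71 TPM in Mock to 134 ± 4.40 in FD, and further to 178 ± 4.66 with manganese and 188 ± 20.1 with insulin (adjusted p = 1.46e-07, 0.00259 and 0.000871), whereas Cebpg was lowest in FD. Cebpa fell from 38.9 ± 2.64 TPM in Mock to 31.8 ± 2.20 in FD, and further to 25.7 ± 1.20 with insulin (adjusted p = 0.00774 and 0.0176 by limma). With manganese Cebpa was at 35.2 ± 0.300 TPM and not called against FD. Ppp1r15b, which encodes the constitutive partner of the phosphatase that GADD34 guides, was at 36.5 ± 1.26 TPM in FD and rose to 44.0 ± 1.47 with manganese and 56.0 ± 4.36 with insulin (adjusted p = 0.0313 and 0.000218). Eif4ebp2 fell from 67.5 ± 0.525 TPM in FD to 54.3 ± 4.78 and 52.5 ± 2.71 TPM (adjusted p = 0.0172 and 0.00854), in the opposite direction to Eif4ebp1. Trib1, at 30.6 ± 1.75 TPM in FD, was not called with manganese or with insulin. Atf6 rose from 18.8 ± 2.05 TPM in FD to 24.5 ± 0.297 with manganese (adjusted p = 0.0124 by limma) and was not called with insulin. Of 14 such relatives 12 passed the filter. In FDMn against FD 4 were called higher and 3 lower (2 and 1 without FDMn replicate 2), where 7.22% and 7.90% of all genes were. In FDI against FD 3 and 3 were, beside 10.2% and 4.35% of all genes.

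**Figure D4:**
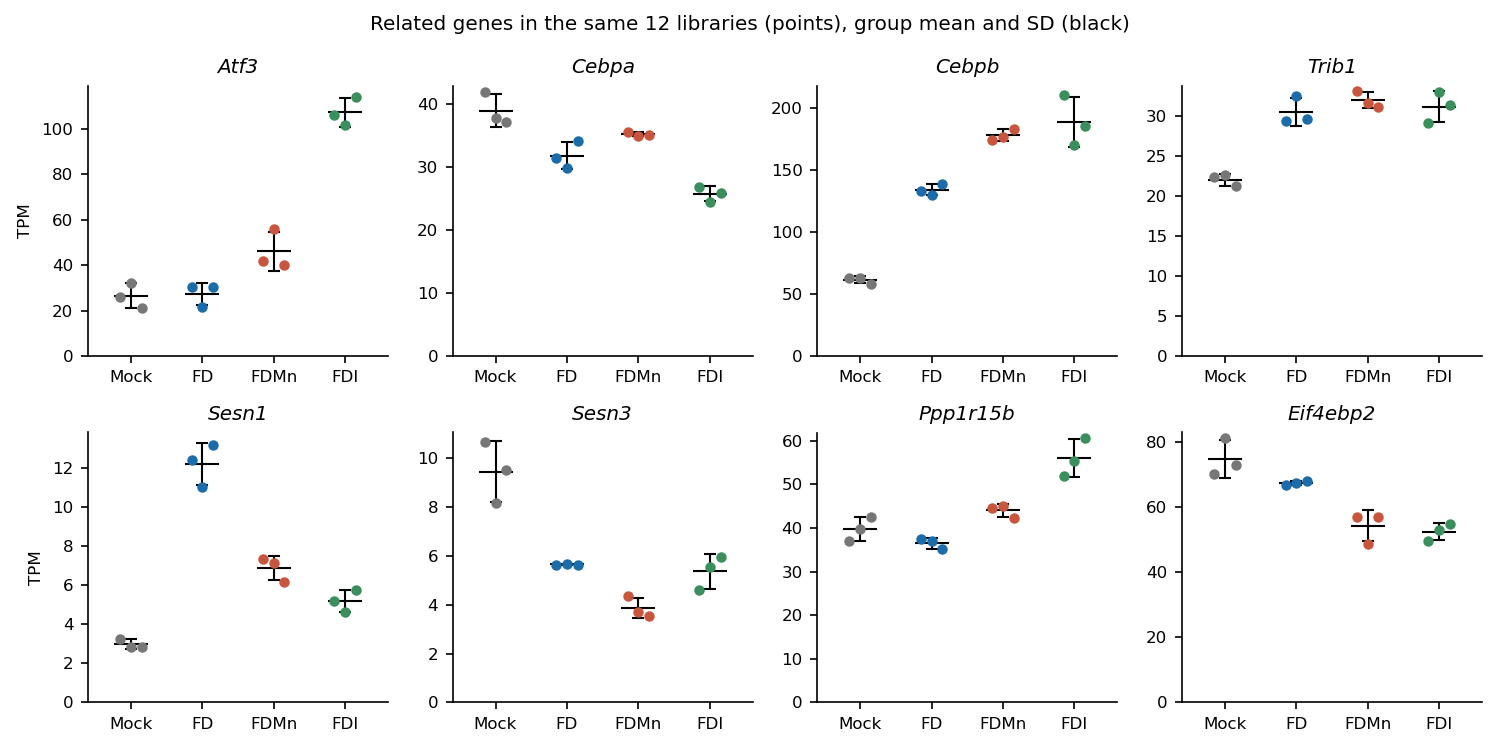
Level in TPM (vertical axis, from 0) of 8 genes related to the members in Mock, FD, FDMn and FDI (horizontal axis). Points are single libraries and black marks the mean and SD of 3 libraries. Sesn1 is highest in FD (mean 12.2 TPM) and Atf3 in FDI (mean 107 TPM).

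Upstream of ATF4, a list of 16 genes held the eIF2 kinases, the subunits of eIF2 and of its exchange factor eIF2B, and the regulators Gcn1l1, Impact, Dnajc3 and Oma1. In FDMn against FD 1 was called higher and 1 lower, where 7.22% and 7.90% of all genes were. In FDI against FD 2 were called higher and 2 lower, where 10.2% and 4.35% of all genes were; without single libraries 1 to 3 were called higher (1 without any FDMn library, Mock replicate 2, FD replicate 1 or FDI replicate 1 or 3). These counts do not set the list apart from all genes. Eif2ak1, the kinase HRI that senses heme and mitochondrial stress, fell from 24.2 to 19.1 TPM with manganese and to 16.9 TPM with insulin (adjusted p = 0.00941 and 0.000784). The other gene called lower with insulin was Oma1, a mitochondrial protease (adjusted p = 0.00753). Eif2s2, a subunit of eIF2, rose from 129 to 153 and 179 TPM (adjusted p = 0.00778 and 0.00011). Another list held 19 genes of the ATF6 and IRE1 arms of the unfolded protein response, most of them chaperones. With manganese 9 were called lower and 2 higher, beside 7.90% and 7.22% of all genes (median −0.20). Without FD replicate 1 or FDMn replicate 1 or 3, 5 were called lower. The chaperones Calr (1081 to 569 TPM) and Hsp90b1 (245 to 152 TPM) had the smallest adjusted p (1.17e-05 and 1.98e-05). With insulin 3 were called lower and 1 higher, beside 4.35% and 10.2% of all genes. Lower calls were 1 without FD replicate 1 or 2 or FDI replicate 3, and 6 without FD replicate 3. Higher calls were 2 without FD replicate 3. The gene called higher was the chaperone Hspa5 (440.4 to 560.2 TPM, adjusted p = 0.000188). Of 20 genes that regulate mTORC1, 0 were called with manganese by limma (4 higher and 2 lower at an unadjusted p below 0.05; 1 and 1 without FD replicate 3), and with insulin 2 were called higher, Ddit4 (43.0 to 65.8 TPM, adjusted p = 0.00166) and Rheb (60.4 to 79.3 TPM, adjusted p = 0.00584), a share near the 10.2% of all genes.

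The genes with the profile most like a member were sought among 8403 others with a mean of at least 5 TPM, by Pearson's r of log2(TPM + 1) over the 12 libraries. These fall into 4 groups, so r mainly compares group means. For Ddit3 they were Mospd1 (r = 0.97), Ifrd1 (0.95), Zfp553 (0.95), Mthfd2 (0.94) and Nars (0.94). For Trib3 they were Cth (0.97), Mthfd2 (0.97), Mospd1 (0.95), Efhd2 (0.94) and Dpf2 (0.94), so that Mospd1 and Mthfd2 were in both sets. For Atf4 they were Dync1li1 (0.98), Atf3 (0.97), Efhd2 (0.97), Atxn2l (0.97) and Ralb (0.96). A high r did not mean a large change: Ifrd1 went from 161 TPM in FD to 532 TPM in FDI, but Mospd1 only from 40.9 to 51.3 TPM.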

How the data were processed

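The submitters' processing notes name kallisto 0.44.0, the GRCm38.p6 build and DESeq2, and give the last no role. The authors deposited 1 table of gene-level TPM for the 12 libraries. Its columns each sum to 1000000, so the read depth is unknown and no counting interval is given. How transcripts were summed to genes, which annotation release served and how strand was used: not given in the sources used here. Columns were matched to samples by library name. Genes with at least 1 TPM in at least 3 libraries were kept. A model with 1 term per group over all 12 libraries was fitted to log2(TPM + 1) across all genes by limma 3.58.1 (R 4.3.3), its prior variance following mean intensity. Two-sided p-values were adjusted by Benjamini-Hochberg across the 11544 genes kept, and the code was tested on simulated data. The 10 members, the lists and the 6 comparisons were chosen with earlier results of these data known. Named beside the members were the most significant genes called in each list (up to 4, or 8 for other targets in FDMn against FD), the relatives of the members, and the 5 closest profiles to Ddit3, Trib3 and Atf4; Bcl2l11 and Tnfrsf10b were singled out after their values were seen. Alternatives were pseudocounts of 0.1 and 0.5, no filter, a filter at 5 TPM, median-of-ratios and quantile scaling, a fit of only 2 groups, no trend, a replicate block, and leaving out each library.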

Additional observations from a re-analysis of the deposited data

How the results depend on the processing

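Members called in each comparison were recounted under 21 other settings, and for the direction and call of each member 1217 of 1260 recomputed values were as reported, 26 lost the call, 16 gained it and 1 reversed. Members called higher in FD against Mock went from 1 to 3 with median-of-ratios scaling and 2 with quantile normalization, and ranged from 1 to 2 without single libraries. Members called higher in FDMn against FD ranged from 7 to 10 without single libraries. In FDMn against FDI 1 member (Nupr1) rather than 0 was called higher in a fit of only the 2 groups. In FDMn against Mock 1 (Cebpg) rather than 0 was called lower with the filter at 5 TPM and in the fit of 2 groups, and 0 to 1 without single libraries. In FDI against Mock 0 rather than 1 was called lower with median-of-ratios scaling, and 0 to 1 without single libraries. With median-of-ratios scaling Eif4ebp1 in FD against Mock went from −0.01 to 0.16, Pdia3 from −0.00 to 0.16 and Manf in FDMn against Mock from −0.16 to 0.0018, the last no longer called. Library factors of that scaling were 1.08 to 1.09 in Mock and 0.957 to 1.01 elsewhere.

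Replicate numbers do not pair the samples: deviations of same-numbered libraries from their group means correlated at −0.0976 to 0.0684 over 18 pairs of libraries. With the replicate block 8 rather than 9 members were called higher in FDMn against FD, Sesn2 being lost, and no other member's call changed. Among the 35 other targets, those called lower in FDMn against FD went from 2 to 1 without FD replicate 1 or 2 or FDMn replicate 2 or 3 and in the fit of 2 groups, and to 4 without FD replicate 3. Over all genes, calls fell from 1674 to 985 in FDI against FD in the fit of 2 groups and to 1092 without FDI replicate 3. They fell from 1746 to 1018 in FDMn against FD without FDMn replicate 1, and to 1163 without FDMn replicate 2. Without FDMn replicate 1 they fell from 2031 to 1351 in FDMn against FDI. Median-of-ratios scaling moved the share of lower genes among calls from 72.7% to 49.1% in FD against Mock, 29.99% to 45.1% in FDI against FD, 67.7% to 55.1% in FDMn against FDI, 71.8% to 48.7% in FDMn against Mock and 66.3% to 48.0% in FDI against Mock.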
